A study of Rattus norvegicus with 72 samples.

Results

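Expression of 10 genes of fatty acid uptake and lipid droplets was followed in cultured rat hepatocytes exposed to 8 compounds for 24 h or 72 h. The genes were Cd36, Slc27a2, Vldlr and Lpl (entry of fatty acids and lipoprotein lipid), Fabp1 and Acsl1 (binding and activation), Plin2, Cidec and Pnpla2 (the lipid droplet) and Angptl4 (a secreted inhibitor of lipolysis). Every probe set of the array whose platform annotation gave one of these symbols, and no other, was taken. This gave 16 of 31042 probe sets, for 10 of 14217 genes named by 1 symbol. The filter on low values was passed by 15 of the 16. The one left out, Acsl1 probe set 1382887_at, stayed at or below an intensity of 9.26 on all 72 arrays. An additional probe set, 1386901_at, carried the symbols Cd36 and Cd36l1 together and is given beside Cd36 but is not counted.

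Primary hepatocytes of the rat were plated as a monolayer in serum-free medium with insulin and hydrocortisone, and exposure began 18 to 20 h after plating. Each compound was set against control cells of its own set and time, with 3 arrays per group from 3 experiments and 72 arrays in 24 groups. The first set held Wy-14,643 at 250 µM (a synthetic ligand of the nuclear receptor PPARalpha), clonidine hydrochloride at 277 µM (an adrenergic agonist) and aflatoxin B1 at 19 nM (a mould toxin that forms DNA adducts). The second set held 2-nitrofluorene at 78 µM (a nitroaromatic carcinogen), piperonyl butoxide at 13.4 µM (an insecticide synergist) and nifedipine at 156 µM (a calcium channel blocker). The tobacco nitrosamine NNK at 625 µM and the antihistamine methapyrilene hydrochloride at 8.5 µM each had control cells of their own. The labels do not say what the control cells received. Compounds of a set share their 3 control arrays at each time, so their comparisons are not independent of each other. Each compound was given at 1 dose, and nothing here describes a dose response.

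Long-chain fatty acids enter the hepatocyte through membrane proteins such as Cd36 and Slc27a2, are carried in the cytosol by Fabp1 and are joined to coenzyme A by Acsl1 before they are burned or stored. Stored triglyceride sits in droplets coated by perilipins such as Plin2, and Pnpla2 (adipose triglyceride lipase) starts its breakdown. In rodent liver many of these genes are known targets of PPARalpha, which binds DNA with RXR at direct repeats of a short motif spaced by 1 base and is switched on by fatty acids and by fibrate-like drugs.

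Promoter sequences of RefSeq (build GRCr8, 250 bases before to 50 bases after an annotated start) were at hand for 9 of the 10 genes, all but Lpl, as 10 promoters because Plin2 had 2. The direct repeat AGGNCANAGGNCA was searched in them on both strands. It was found in 1 of these 10 promoters, that of Fabp1, against 139 of all 33469 promoters (0.415%). The promoters of the other members called below (Acsl1, Angptl4, Plin2, Pnpla2, Slc27a2 and Vldlr) held no match. The stretch of 100 bases that ends at the base before the start of Fabp1 holds that match and is shown here. It lies on the plus strand at chr4:104749240-104749339, and the capitals mark the match, which reads as the repeat on the minus strand and begins 77 bases before the start.
Fabp1: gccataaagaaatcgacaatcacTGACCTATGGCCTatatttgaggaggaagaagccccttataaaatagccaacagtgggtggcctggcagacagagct
The match describes these letters, and the arrays hold no measurement of binding there.

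Values are intensities that the authors computed with MAS5. They were floored at 3.117, turned into log2 and tested with limma across 18048 probe sets. A member is called where the Benjamini-Hochberg adjusted p over all of these is under 0.05. An error given after ± is the standard error of a log2 difference from that fit, with 3 arrays in each group. Array medians ran from 15.69 to 23.68. The hepatocyte genes Alb and Ttr were high on all 72 arrays, with lowest intensities of 3050 and 3040. Of the adipocyte genes, Lep was at the floor on 71 arrays, Adipoq on 35 (median 3.19) and Plin1 on 14 (median 6.53). The others had medians of 12.4 (Pparg), 42.2 (Cfd), 48.2 (Lipe) and 79.5 (Fabp4, highest 523). In such bulk samples, fewer cells of a type and less RNA per cell cannot be told apart.

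Some arrays stood apart. On 10 arrays the log2 ratio of the 3′ to the 5′ actin control was between 1.84 and 2.71, against 0.355 to 1.11 on the other 62. They were the 8 arrays of D number 3 (replicate 3 of Wy-14,643, clonidine, aflatoxin B1 and their controls, at both times) and 2 more of aflatoxin B1, the first replicate of 24 h and the second of 72 h. The D number is a mark in the array titles whose meaning is not stated. Between 24 h and 72 h the D number 3 pairs also changed in a direction opposed to that of the 9 control pairs of the other sets (the NNK and 2-nitrofluorene sets carry the same D numbers 7, 8 and 9, and whether they share cultures is not stated). Across 18048 probe sets the correlation was −0.474 in the control pair, −0.215 with Wy-14,643, −0.39 with clonidine and −0.373 with aflatoxin B1, against 0.246 to 0.619 in the 8 pairs of D numbers 1 and 2. These 8 arrays thus go against their time labels, and called results for Wy-14,643 and aflatoxin B1 are given with and without them.

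2-Nitrofluorene and Wy-14,643 raised the most members. After 24 h of 2-nitrofluorene 6 of 15 member probe sets rose and none fell, where 1.13% of all probe sets were called. After 72 h 5 rose and none fell, against 0.809% of all. After 72 h of Wy-14,643 6 rose and none fell, against 7.31% of all, and at 24 h none was called, against 0.0443% of all. The members raised in all 3 of these comparisons were Fabp1, Acsl1 and Plin2, the last by the brighter of its 2 probe sets only. Angptl4 and Pnpla2 rose at 24 h with 2-nitrofluorene and at 72 h with Wy-14,643, and Slc27a2 was called with 2-nitrofluorene at 72 h. A fit of only the 6 arrays compared called none of the members with Wy-14,643 at 72 h (adjusted p 0.0578 to 0.45 for the 6) and none with aflatoxin B1 at either time. The share of all probe sets called in that fit is not given here. Whether the loss of calls was particular to the members is therefore not shown. The median log2 difference of the 10 genes was 1.26 and 1.40 with 2-nitrofluorene and 1.33 with Wy-14,643 at 72 h, where the median over all probe sets was −0.04, −0.07 and −0.03.

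The other compounds moved fewer members. Piperonyl butoxide raised the 2 probe sets of Acsl1 at 24 h (2 of 15, against 0.0887% of all) and none at 72 h, where no probe set of the array was called (0%). With aflatoxin B1 3 of 15 were called at 24 h (1 up, 2 down, against 3.33% of all) and 4 at 72 h (1 up, 3 down, against 4.91%). Those that fell were probe sets of Vldlr, and the one that rose was the dimmer of the 2 of Plin2. Nifedipine raised 1 Vldlr probe set at 72 h (against 3.18% of all) and none at 24 h (against 0.46%). No member was called with NNK (0.92% of all called at 24 h and 3.32% at 72 h), clonidine (0.0166% and 0.0332%) or methapyrilene (0% and 0%). At an unadjusted limma p under 0.05 the counts of 15 were 7 with Wy-14,643 at 24 h (against 10.5% of all probe sets), 5 with nifedipine at 24 h (8.79%), 1 with piperonyl butoxide at 72 h (1.09%) and 0 and 5 with NNK at 24 h and 72 h (8.93% and 15.6%). The counts were 0 with clonidine (6.71% and 4.63%) and with methapyrilene (2.29% and 1.78%) at both times.

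**Figure D1:**
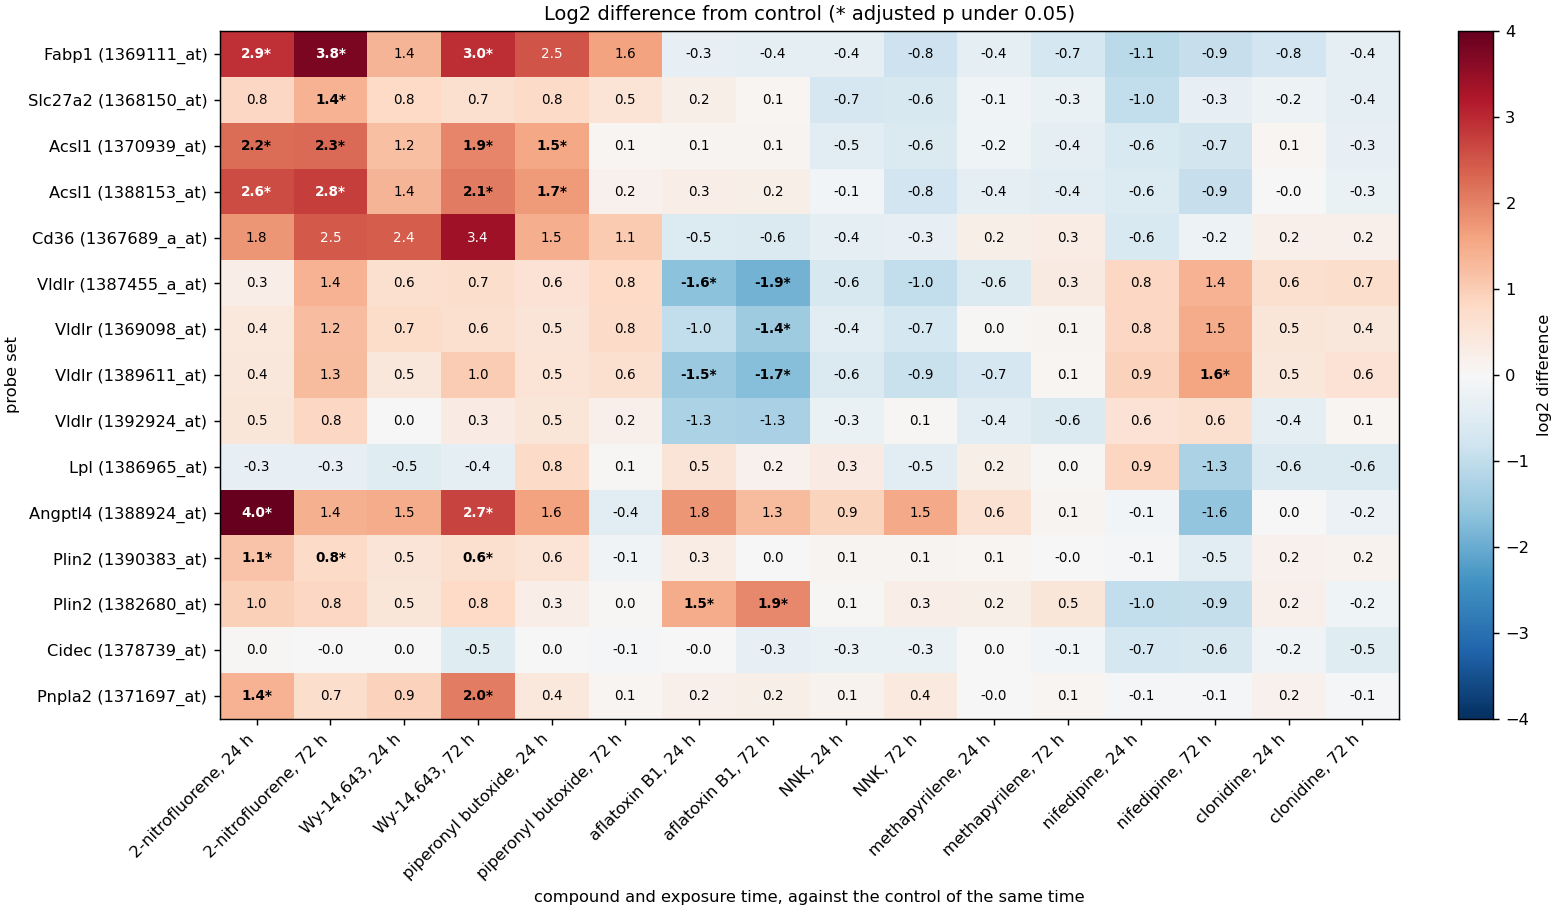
Log2 difference from the control of the same set and time (colour and number) for the 15 member probe sets that passed the filter, in rows, and the 8 compounds at 24 h and 72 h, in columns. Stars mark an adjusted p under 0.05 in limma; the called increases of Fabp1 and Acsl1 lie under 2-nitrofluorene, Wy-14,643 at 72 h and, for Acsl1, piperonyl butoxide at 24 h, while the called decreases lie in the Vldlr rows under aflatoxin B1.

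Among the proteins that bring fatty acids into the cell, Slc27a2 (a very long-chain acyl-CoA synthetase that also serves as a transporter) was called once. At 72 h its intensities were 4276, 3405 and 4493 with 2-nitrofluorene and 1525, 1257 and 1851 in the controls. The groups did not overlap, and the log2 difference was 1.40 ± 0.36 (adjusted p = 0.0388, 2.64-fold). The call was lost without any one of control replicates 1, 2 or 3 or of 2-nitrofluorene replicates 1 or 3, with adjusted p between 0.0609 and 0.312, and without the filter (0.0697). At 24 h 2-nitrofluorene gave 2944, 2749 and 3340 against 1538, 1840 and 1663, again without overlap, but the difference of 0.84 ± 0.36 was not called (adjusted p = 0.331). Nifedipine lay on the other side at 24 h. Its arrays gave 820, 893 and 843, all below the same 3 controls, with a difference of −0.98 ± 0.36 (adjusted p = 0.275, and 0.0482 with the D number as a block). This block is called the replicate block below. Set directly against nifedipine, 2-nitrofluorene was higher at 24 h by 1.82 ± 0.36 (adjusted p = 0.0011) and at 72 h by 1.73 ± 0.36 (0.00185).

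Cd36, the scavenger receptor and fatty acid translocase, had the widest spread of the 10 genes. Over the 12 control arrays of 24 h its intensity ran from 7.62 to 253 (median 74.1), and over the 12 of 72 h from 4.69 to 566 (median 194.5). The lowest value at each time was a D number 3 array. With Wy-14,643 at 72 h the arrays gave 3175, 1232 and 27.0, and their controls gave 151, 132 and 4.69. Each treated array was thus above the control array of its own D number, by 4.40, 3.22 and 2.53 on the log2 scale, while the groups overlapped. The difference of 3.38 ± 1.22 was not called in the unpaired fit (adjusted p = 0.0808). It was called with the D number as a block (0.00454) and, as 3.81, without the D number 3 arrays (6.69e-04). The probe set shared with Cd36l1 was called there, with a log2 difference of 2.94 ± 0.82 (adjusted p = 0.0176). 2-Nitrofluorene at 72 h gave 1164, 1259 and 1099 against 260, 215 and 174. No treated array overlapped with a control, yet the difference of 2.46 ± 1.22 was not called (adjusted p = 0.613), and it was called without the D number 3 arrays, which are not part of this comparison but enter the shared estimate of the spread (0.024). Piperonyl butoxide gave 597, 408 and 357 against the same controls at 72 h, without overlap, and was not called.

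Vldlr, the receptor that takes up triglyceride-rich lipoproteins, was the one member that fell. Its main probe set gave 53.1, 46.3 and 89.1 with aflatoxin B1 at 72 h and 254, 224 and 196 in the controls. Every treated array was below every control, and the difference was −1.89 ± 0.49 (adjusted p = 0.0115). Probe sets 1389611_at (−1.70 ± 0.41, adjusted p = 0.00587) and 1369098_at (−1.43 ± 0.45, adjusted p = 0.0486) fell too. The fourth, 1392924_at, differed by −1.30 ± 0.42 (adjusted p = 0.0563). At 24 h the main probe set gave 47.5, 195 and 33.5 against 198, 448 and 107, and the groups overlapped. The treated array was lower in each of the 3 pairs of equal number. These numbers do not pair the arrays in this comparison, where deviations from the group means correlated by −0.265, 0.673 and 0.274 over all tested probe sets. The difference was −1.64 ± 0.49 (adjusted p = 0.0453), and that of 1389611_at was −1.47 ± 0.41 (adjusted p = 0.0289).

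The fall of Vldlr held at 72 h without the D number 3 arrays, at −2.27 (adjusted p = 0.00261) for the main probe set and −1.80 (0.00501) for 1389611_at, and at −1.74 (0.00639) for 1369098_at. At 24 h it did not: without D number 3 the differences were −1.63 (adjusted p = 0.0648) and −0.97 (0.234). With the 10 arrays above an actin log2 ratio of 1.5 left out, 1 aflatoxin B1 array remained at each time. Only sizes are given for that fit. At 24 h they were −0.61 for the main probe set and −0.41 for 1389611_at. At 72 h they were −2.17 for the main probe set, −1.83 for 1389611_at and −1.52 for 1369098_at. Leaving out aflatoxin B1 replicate 2 ended all 3 calls at 72 h, with adjusted p of 0.137 for the main probe set, 0.0666 for 1389611_at and 0.326 for 1369098_at. Leaving out control replicate 1 or 2 ended that of the main probe set (0.0513 and 0.051) and of 1369098_at (0.198 and 0.185), and leaving out aflatoxin B1 replicate 3 ended that of 1369098_at (0.0715). At 24 h the call of the main probe set was lost without any one of control replicates 1 and 2 or aflatoxin B1 replicates 1 and 3, and that of 1389611_at without control replicate 2 or 3 or aflatoxin B1 replicate 1 or 3. The direction was the same in each of these fits. None of 13 macrophage markers was called with aflatoxin B1, but the summed intensity of 14 of them was 1246 to 2122 at 72 h against 747 to 1099 in the controls, and 1060 to 2214 at 24 h against 549 to 1330. Without the D number 3 arrays 2 of the 13 rose at 72 h (against 12.8% of all probe sets called) and 0 at 24 h (against 4%). The part of these markers in the result was not tested.

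Nifedipine moved Vldlr the other way. At 72 h its main probe set gave 327, 311 and 199 against 95.6, 124 and 92.3 in the controls, with no overlap. The difference was 1.40 ± 0.49 (adjusted p = 0.0967, and 0.0356 with the replicate block). Probe set 1389611_at rose by 1.57 ± 0.41 (adjusted p = 0.0212, or 0.0502 to 0.144 without any one of the arrays other than nifedipine replicate 3), and 1369098_at differed by 1.48 ± 0.45 (0.0525, and 0.00884 with the block). With the block 4 member probe sets were called here, where the unpaired fit called 1, the fourth being a lower Plin2 (−0.46, adjusted p = 0.0468 against 0.144). Without the D number 3 arrays, which enter only the shared spread, 7 were called, among them a lower Acsl1 (−0.73, adjusted p = 0.0182). The share of all probe sets called in these alternative fits is not given beside these counts, so they do not show a gain particular to the members. After 72 h of 2-nitrofluorene the main probe set gave 277, 262 and 271 against the same controls, again all above them, with a difference of 1.39 ± 0.49 that was not called (adjusted p = 0.274).

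**Figure D2:**
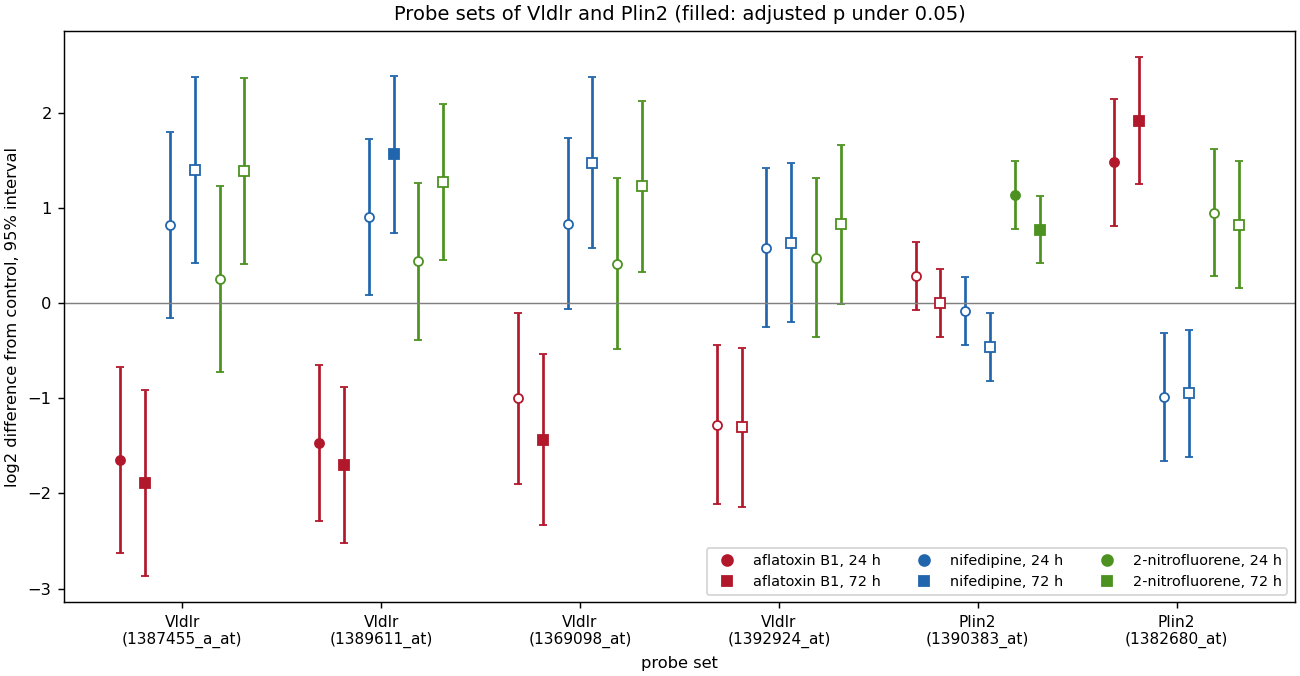
Log2 difference from control with 95% confidence intervals from limma (vertical axis) for the 4 probe sets of Vldlr and the 2 of Plin2 (horizontal axis) with aflatoxin B1, nifedipine and 2-nitrofluorene, circles at 24 h and squares at 72 h. Filled points have an adjusted p under 0.05; with aflatoxin B1 all 4 Vldlr probe sets lie below 0 at both times (−1.89 for the main one at 72 h), while the 2 Plin2 probe sets part (0.01 and 1.92 at 72 h).

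Lpl, the lipase that frees fatty acids from circulating lipoproteins, is made mostly outside hepatocytes in the adult. Its intensity was low, from 13.2 to 85.9 over the control arrays of 24 h and from 26.4 to 232 over those of 72 h, and it was called in none of the 16 comparisons. With nifedipine it gave 250.3, 45.8 and 62.5 at 24 h against 74.1, 36.3 and 43.5 in the controls, and 28.1, 58.2 and 80.3 at 72 h against 76.9, 164 and 146. The groups overlapped at both times, and the differences of 0.87 ± 0.77 and −1.27 ± 0.77 had adjusted p of 0.874 and 0.417. Of 13 macrophage markers tested, 3 fell with nifedipine at 72 h (Cd163, C1qa and Aif1, against 3.18% of all probe sets called). The sum of 14 was 491 to 879 against 795 to 1528. At 24 h, where Lpl had the higher mean, 0 of the 13 were called (against 0.46% of all). Only 1 of the 13 was higher than in the controls then, with a median log2 difference of −0.35 over these markers. Their part in the Lpl values was not tested.

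Fabp1, the liver fatty acid binding protein, ran from 195 to 832 over the 12 control arrays of 24 h and from 78.0 to 767 over the 12 of 72 h. After 24 h of 2-nitrofluorene it gave 3053, 3299 and 3928 against 337, 654 and 401 in the controls. After 72 h it gave 3377, 2836 and 6425 against 218, 227 and 479. Treated and control arrays did not overlap at either time. The differences were 2.93 ± 0.67 (adjusted p = 0.0105, 7.65-fold) and 3.78 ± 0.67 (7.31e-04, 13.7-fold). The call at 72 h was kept under each of the 15 alternative settings tried. That at 24 h was lost without control replicate 1 (adjusted p = 0.0848), control replicate 3 (0.0681) or 2-nitrofluorene replicate 3 (0.0681), with differences of 2.73, 2.86 and 2.83.

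Wy-14,643 at 72 h gave Fabp1 intensities of 6345, 2651 and 2522 against 156, 753 and 767. All treated arrays exceeded all controls, and control replicate 1 lay well below the others. The difference was 2.96 ± 0.67 (adjusted p = 0.0029), 3.58 without the D number 3 arrays (5.85e-04) and 2.20 without control replicate 1 (0.061, no longer called). Piperonyl butoxide gave 2084, 3405 and 2338 at 24 h against the same 3 controls as 2-nitrofluorene, without overlap. That difference of 2.52 ± 0.67 was not called in the unpaired fit (adjusted p = 0.231) and was called with the replicate block (0.0303). At 72 h piperonyl butoxide gave 603, 626 and 1791 against 218, 227 and 479, again without overlap, with a difference of 1.61 ± 0.67 (adjusted p = 1). Nifedipine at 24 h gave 157, 266 and 221, all below those controls, a difference of −1.09 that was not called.

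Acsl1, the main long-chain acyl-CoA synthetase of liver, rose in 4 of the 16 comparisons and fell in none. The control intensities of its main probe set lay between 568 and 1030 at 24 h and between 606 and 1249 at 72 h. 2-Nitrofluorene gave 3678, 3764 and 4295 at 24 h against 790, 848 and 835, and 4007, 2973 and 4409 at 72 h against 789, 732 and 794. The groups stood far apart at both times. The differences were 2.24 ± 0.28 (adjusted p = 7.35e-07, 4.74-fold) and 2.28 ± 0.28 (6.97e-07, 4.85-fold). The other tested probe set, 1388153_at, rose by 2.61 ± 0.32 and 2.76 ± 0.32. These 4 calls were kept under each of the 15 alternative settings.

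Wy-14,643 at 72 h gave Acsl1 intensities of 4159, 3364 and 3360 against 754, 1249 and 868, with no overlap. The difference was 1.95 ± 0.28 (adjusted p = 4.22e-06), and without the D number 3 arrays 1.95 (2.47e-07). Probe set 1388153_at was called there too, and without those arrays its difference was 2.05 (3.48e-07). At 24 h the 3 arrays were unlike: 1109 and 1141 for replicates 1 and 2, and 4651 for replicate 3, against 879, 970 and 568. All 3 exceeded the controls, but the difference of 1.20 ± 0.28 was not called (adjusted p = 0.0692, and 0.033 with the replicate block). Without the D number 3 arrays it was 0.28 (adjusted p = 1). Piperonyl butoxide raised Acsl1 at 24 h to 2050, 3146 and 2165, all above the controls, by 1.55 ± 0.28 (adjusted p = 0.00389) and by 1.69 ± 0.32 in 1388153_at (0.00665). These calls were lost without control replicate 1 (adjusted p = 0.0521 and 0.0534) or piperonyl butoxide replicate 2 (0.142 and 0.436), and the second also without control replicate 2 (0.0514). At 72 h piperonyl butoxide gave 866, 751 and 856 against 789, 732 and 794, groups that overlapped, with a difference of 0.09 ± 0.28.

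**Figure D3:**
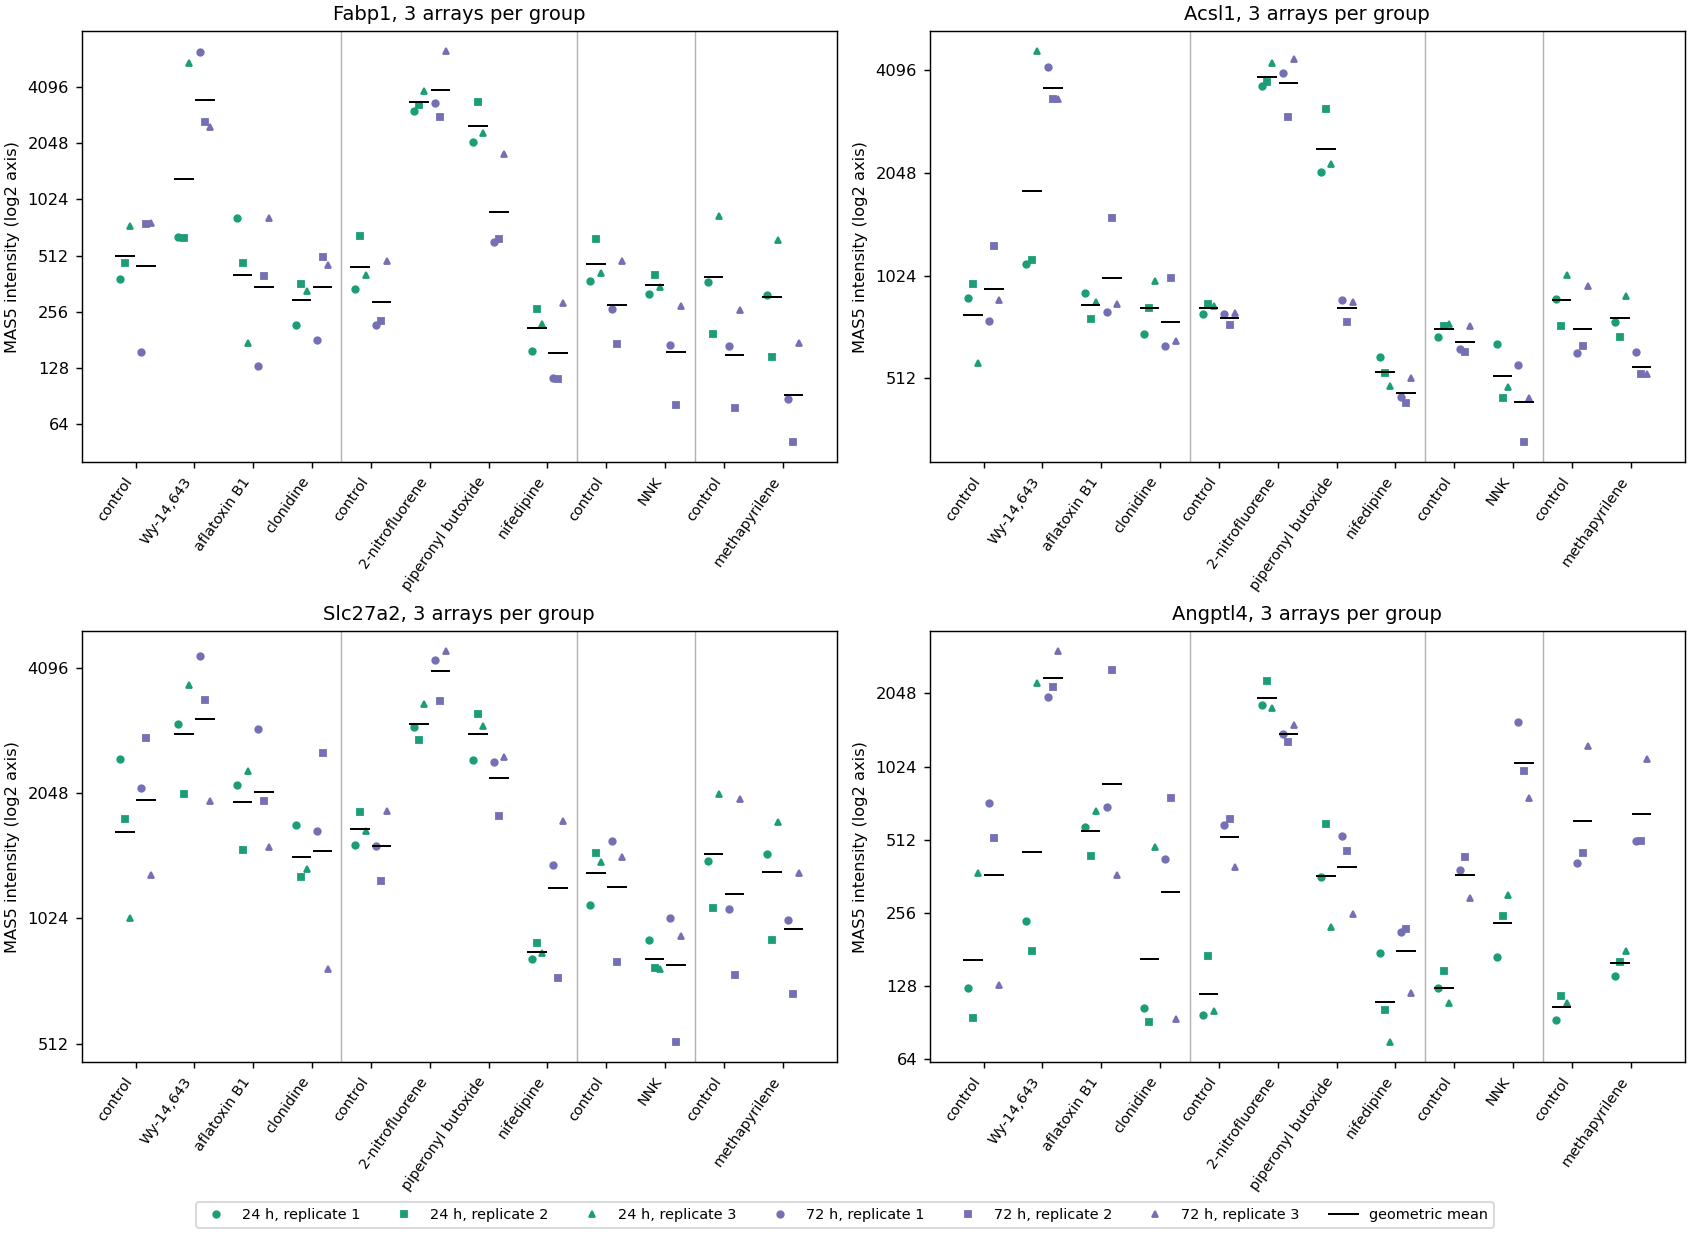
MAS5 intensity (log2 axis) on each of the 72 arrays for Fabp1, Acsl1, Slc27a2 and Angptl4, by compound, with 24 h in green and 72 h in purple, a marker shape per replicate and a bar at the geometric mean of 3 arrays. Grey lines part the 4 sets of compounds and controls; the Acsl1 arrays of 2-nitrofluorene lie between 2973 and 4409, and with Wy-14,643 at 24 h replicate 3 (4651) stands apart from replicates 1 and 2.

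Plin2, the perilipin that coats droplets in hepatocytes, had the smallest called changes. Its main probe set gave 3756, 3974 and 4492 with 2-nitrofluorene at 24 h against 1684, 2000 and 1851. At 72 h it gave 4074, 3494 and 3959 against 2308, 2228 and 2175. The groups did not overlap at either time. The differences were 1.14 ± 0.18 (adjusted p = 3.95e-05, kept under every alternative) and 0.78 ± 0.18 (0.0133). The second was lost without control replicate 2 or 3 or 2-nitrofluorene replicate 1 or 3 (adjusted p 0.065 to 0.114). Wy-14,643 at 72 h gave 3510, 4304 and 3779 against 2566, 2968 and 2009, without overlap, a difference of 0.63 ± 0.18 (adjusted p = 0.0176). That call was lost without the D number 3 arrays (0.49, adjusted p = 0.14), without control replicate 3 (0.109) and without Wy-14,643 replicate 2 (0.153). The dimmer probe set, 1382680_at, was called in none of these 3 comparisons. With 2-nitrofluorene it gave 102, 162 and 164 at 24 h against 55.9, 90.0 and 74.3, and 180, 106 and 113 at 72 h against 92.5, 61.3 and 68.2. With Wy-14,643 at 72 h it differed by 0.78 (limma adjusted p = 0.151), and by 0.40 without the D number 3 arrays.

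The 2 probe sets of Plin2 disagreed with aflatoxin B1. The main one gave 2305, 2643 and 2538 at 72 h against 2566, 2968 and 2009, a difference of 0.01 ± 0.18. The dimmer one, 1382680_at, gave 216, 618 and 137 against 66.3, 76.0 and 66.7, a difference of 1.92 ± 0.33 (adjusted p = 6.45e-05). At 24 h the dimmer one gave 174, 141 and 301 against 73.3, 67.3 and 67.9, a difference of 1.48 ± 0.33 (adjusted p = 0.00382, or 0.0967 without aflatoxin B1 replicate 3), where the main one differed by 0.29. Neither pair of groups of the dimmer probe set overlapped, and it was called at both times without the D number 3 arrays (1.15 and 2.36). Leaving out the 10 arrays above that actin ratio kept only aflatoxin B1 replicate 1 at 72 h and replicate 2 at 24 h. The differences were then 1.61 at 72 h and 1.00 at 24 h. Over 72 arrays the 2 probe sets correlated with r = 0.572, less than the 2 of Acsl1 (0.965), so no direction is given for the gene with aflatoxin B1.

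Cidec, a protein that enlarges droplets, was called in none of the 16 comparisons, and its log2 differences lay between −0.69 and 0.04. With nifedipine the arrays lay below the controls without overlap at both times (390, 409 and 506 against 629, 760 and 710 at 24 h, and 584, 439 and 492 against 848, 677 and 827 at 72 h). The differences were −0.69 ± 0.26 and −0.64 ± 0.26, with adjusted p of 0.294 and 0.168.

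Pnpla2, the lipase of the first step of triglyceride breakdown, was called with Wy-14,643 at 72 h and with 2-nitrofluorene at 24 h. With Wy-14,643 at 72 h it gave 665, 1098 and 685 against 204, 210 and 166. With 2-nitrofluorene at 24 h it gave 333, 547 and 447 against 151, 200.2 and 154. Neither comparison overlapped. The differences were 2.04 ± 0.28 (adjusted p = 2.63e-06, 4.13-fold; 2.05 and 1.05e-07 without the D number 3 arrays) and 1.38 ± 0.28 (0.00261; 0.0559 without 2-nitrofluorene replicate 2). At 72 h 2-nitrofluorene gave 274, 236 and 333 against 165, 167 and 180, all above, and the difference of 0.71 ± 0.28 was not called (adjusted p = 0.414). The effect of 2-nitrofluorene minus that of Wy-14,643 at 72 h was −1.34 ± 0.40 (adjusted p = 0.108, against 0.416% of probe sets called for that difference).

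**Figure D4:**
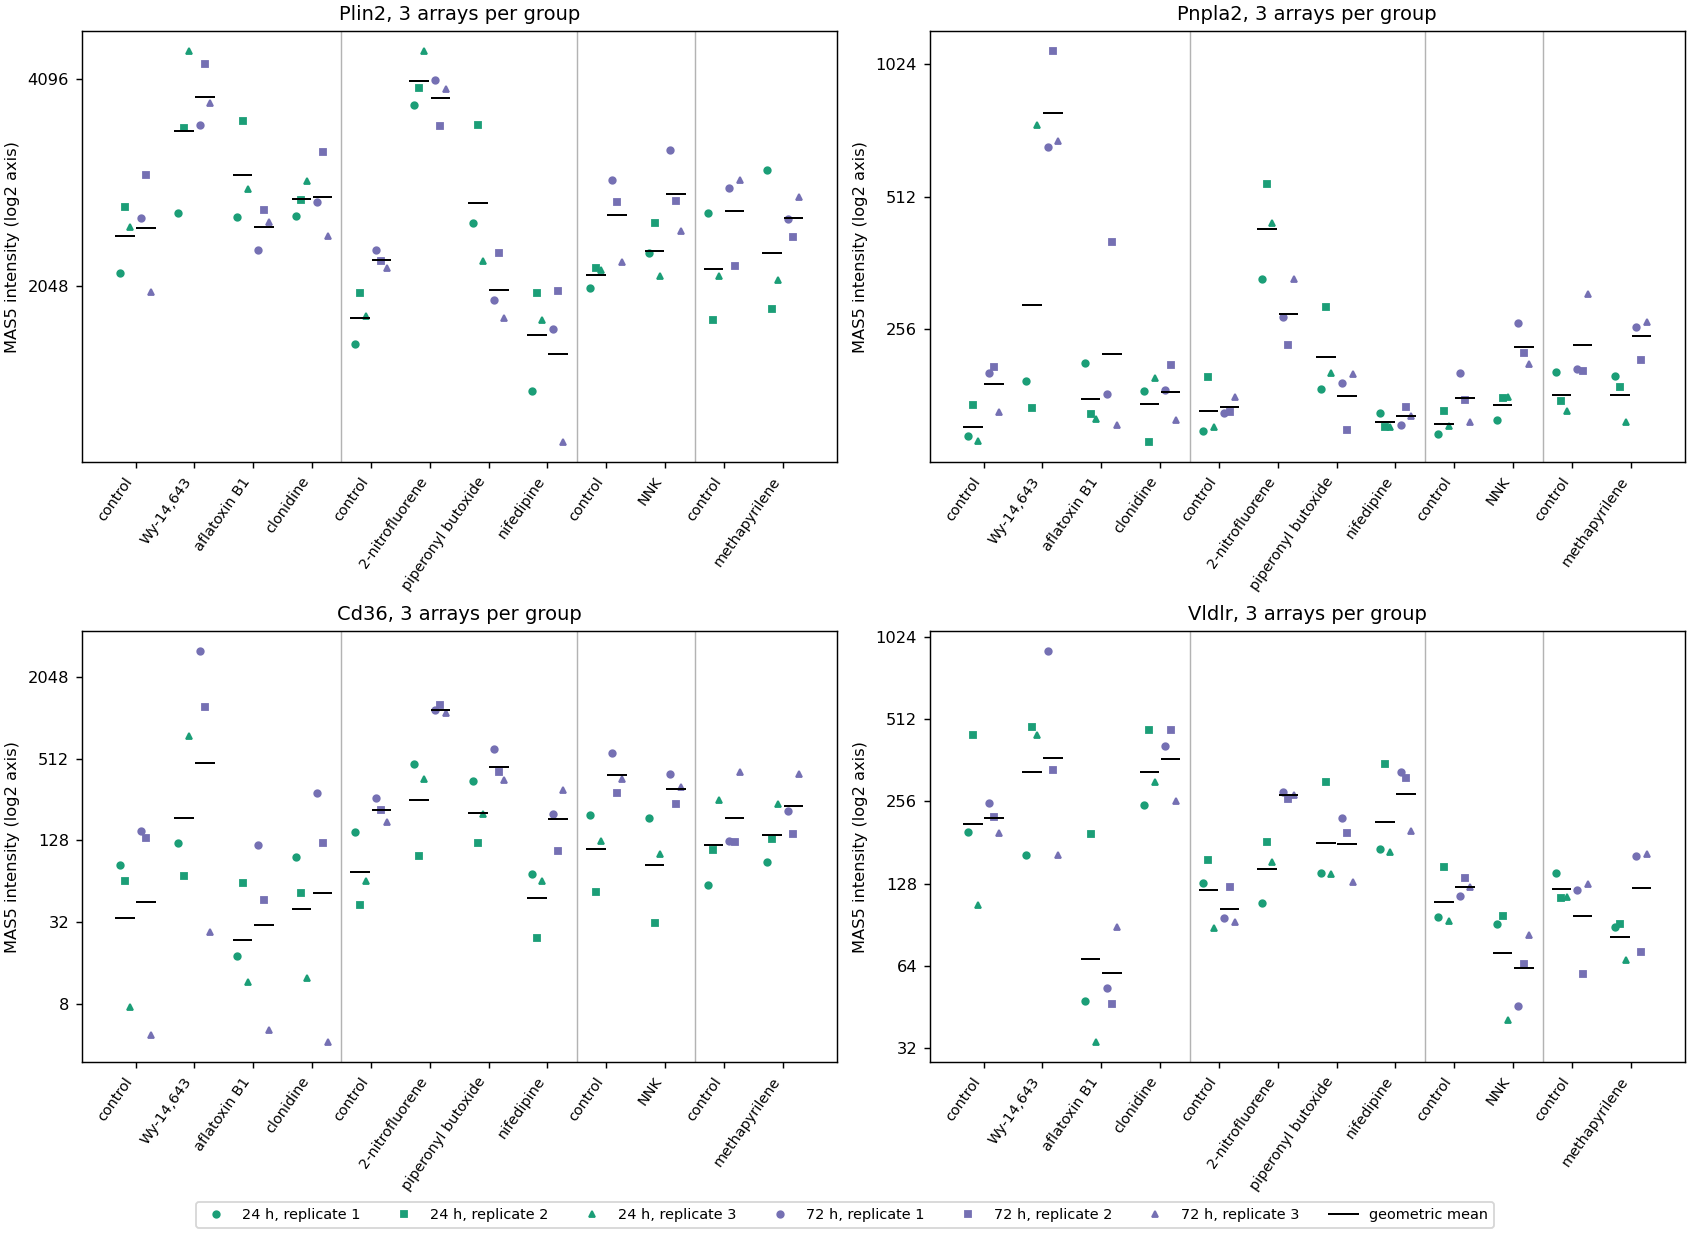
MAS5 intensity (log2 axis) on each of the 72 arrays for Plin2 and Pnpla2 (droplet) and for Cd36 and Vldlr (surface), drawn as for the uptake and activation genes. Pnpla2 with Wy-14,643 at 72 h lies between 665 and 1098, above every other 72 h array, and the lowest Cd36 values are D number 3 arrays of the Wy-14,643, clonidine and aflatoxin B1 set.

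Angptl4, a secreted inhibitor of lipoprotein lipase, showed the largest called change of the members. After 24 h of 2-nitrofluorene it gave 1827, 2297 and 1776 against 97.3, 170.1 and 100.3 in the controls. No array overlapped, and the difference was 4.04 ± 0.66 (adjusted p = 1.05e-04, 16.5-fold), kept under each alternative. At 72 h the treated arrays gave 1395, 1290 and 1514, and the controls gave 591, 625 and 394. The groups still did not overlap, and the difference of 1.41 ± 0.66 was not called (adjusted p = 0.554). The effect at 72 h minus that at 24 h was −2.63 ± 0.94 (adjusted p = 1).

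With Wy-14,643 at 72 h Angptl4 gave 1988, 2180 and 3066 against 725, 522 and 129. Treated arrays were above all controls, and the difference was 2.70 ± 0.66 (adjusted p = 0.00601), 1.76 without the D number 3 arrays (0.0131) and 1.95 without control replicate 3 (0.0723, no longer called). Aflatoxin B1 gave 576, 439 and 672 at 24 h against 125, 94.4 and 372, without overlap. That difference of 1.76 ± 0.66 was not called (adjusted p = 0.158) and was called, as 2.21, without the D number 3 arrays (0.00384). NNK gave 1567, 985 and 763 at 72 h against 383, 434 and 295, and nifedipine gave 214, 220.2 and 120 against 591, 625 and 394. Neither overlapped with its controls. The differences of 1.53 ± 0.66 and −1.56 ± 0.66 had adjusted p of 0.226 and 0.195, and without the D number 3 arrays, which belong to neither comparison, 0.00978 and 0.00935.

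In the control cells themselves no member was called between 24 h and 72 h in any of the 4 sets, where 0%, 2.71%, 2.85% and 0.51% of probe sets were called in the sets of Wy-14,643, 2-nitrofluorene, NNK and methapyrilene. An unadjusted p under 0.05 was reached by 0, 1, 1 and 2 of 15, against 2.3%, 17.9%, 18.7% and 13.1% of all. Angptl4 was higher at 72 h in 11 of 12 control pairs, and the exception was D number 3 (372 at 24 h and 129 at 72 h). These 12 pairs carry 9 distinct D numbers, since those of NNK and 2-nitrofluorene are the same. Its differences were 2.15 ± 0.66 in the 2-nitrofluorene set (adjusted p = 0.0589) and 2.54 ± 0.66 in the methapyrilene set (0.0514). Cd36, Lpl, Pnpla2 and the main probe set of Plin2 were each higher in 11 of 12 pairs too, as counts with no test.

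No member was called in the differences between the 24 h and 72 h effects, for any of the 8 compounds. Of all probe sets the share called in these was 0% with Wy-14,643, clonidine, aflatoxin B1, piperonyl butoxide and methapyrilene, 0.00554% with 2-nitrofluorene, 0.116% with nifedipine and 0.0277% with NNK. An unadjusted limma p under 0.05 was reached by 1 of 15 with Wy-14,643 (against 6.41% of all), 1 with 2-nitrofluorene (3.88%) and 4 with piperonyl butoxide (1.31%). It was reached by 0 with clonidine (1.06%), aflatoxin B1 (2.43%), nifedipine (7.4%), NNK (4.84%) and methapyrilene (1.02%). The Acsl1 effect of piperonyl butoxide at 72 h minus that at 24 h was −1.45 ± 0.40 (unadjusted p = 5.72e-04, adjusted p = 1). A call at one time and none at the other therefore does not show that the times differed.

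Wy-14,643 in D number 3 differed from its other pairs. At 24 h the log2 difference between the treated and control array of D number 3 was 3.03 for Acsl1, 2.91 for Fabp1 and 2.39 for Pnpla2. In D numbers 1 and 2 it was 0.33 and 0.23, 0.75 and 0.45, and 0.41 and −0.03. At 72 h the 3 pairs were 2.47, 1.43 and 1.95 for Acsl1 and 1.71, 2.39 and 2.04 for Pnpla2. For Angptl4 they were 1.46, 2.06 and 4.58, where D number 3 lay apart, and for Fabp1 5.35, 1.82 and 1.72, where D number 1 did. No member was called at 24 h without these arrays either, where 0% of all probe sets were called. At 72 h 7 of 15 were called without them, against 9.15% of all.

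**Figure D5:**
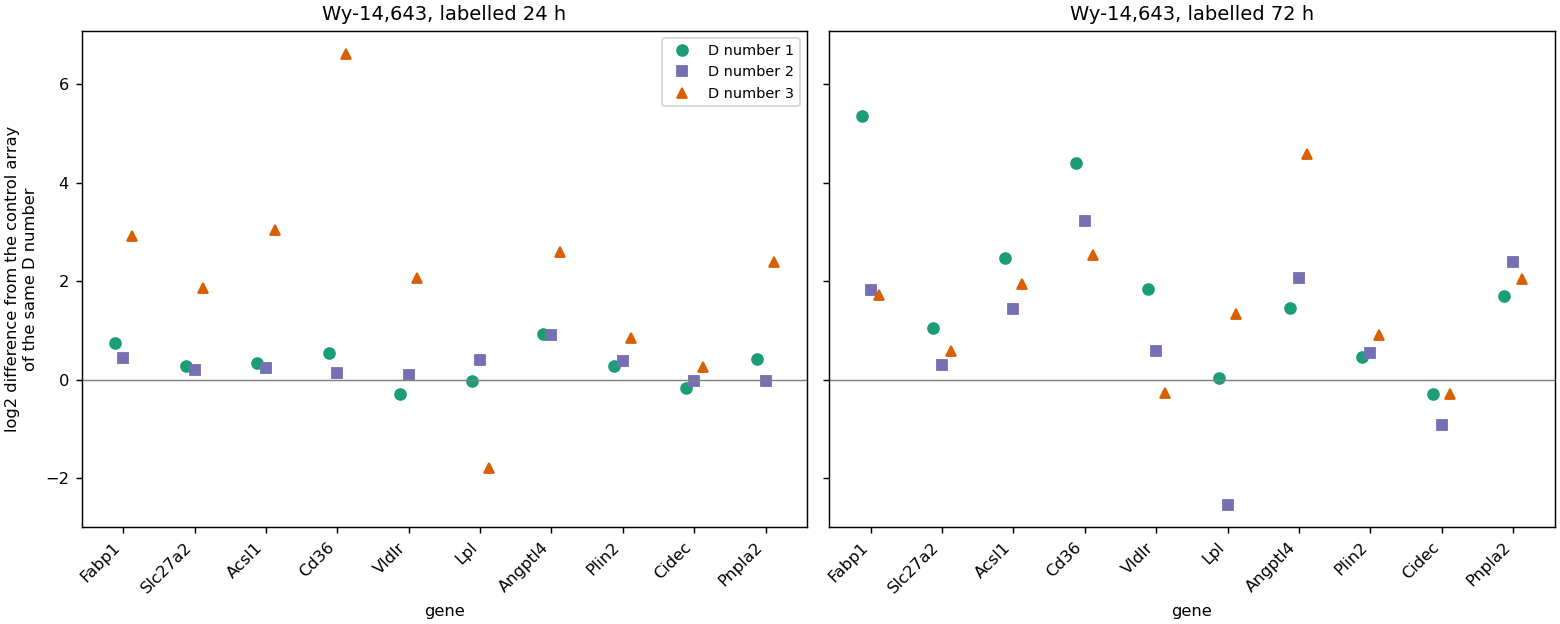
Log2 difference between the Wy-14,643 array and the control array of the same D number (vertical axis) for the main probe set of each of the 10 genes (horizontal axis), at the labelled 24 h (left) and 72 h (right). At 24 h D number 3 lies apart for Acsl1 (3.03), Fabp1 (2.91) and Cd36 (6.61, from a low control intensity of 7.62), whereas D numbers 1 and 2 lie between −0.28 and 0.92 for all 10 genes.

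Set against each other without the controls, 2-nitrofluorene exceeded nifedipine in 8 of 15 member probe sets at 24 h (against 2.07% of all called) and 7 at 72 h (against 3.2%), and was lower in none. Fabp1 was higher by 4.02 ± 0.67 and 4.69 ± 0.67 and Acsl1 by 2.87 ± 0.28 and 3.01 ± 0.28. Wy-14,643 exceeded clonidine in 5 of 15 at 72 h (against 2.87% of all) and none at 24 h (against 0.00554%, with 6 of 15 at an unadjusted limma p under 0.05, against 4.22% of all). Between the effects of 2-nitrofluorene and of Wy-14,643, which share no array, no member was called at either time. For 24 h 0% of all probe sets were called for that difference, and the unadjusted limma counts were 4 of 15 at 24 h (against 3.54% of all) and 1 at 72 h (against 11%). At 72 h the 95% interval of that difference ran from −0.46 to 1.13 for Acsl1 and from −1.10 to 2.73 for Fabp1, so neither likeness nor difference is shown.

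Over the means of the 24 groups, a description in which groups share controls and sets, Fabp1, Acsl1 and Slc27a2 varied together, with Pearson r of 0.938 between Fabp1 and Acsl1, 0.906 between Acsl1 and Slc27a2 and 0.888 between Fabp1 and Slc27a2. Angptl4 and Pnpla2 gave 0.80, and Plin2 gave 0.786 with Angptl4. Cd36, Vldlr, Cidec and Lpl lay outside this group, with 0.406, 0.393, 0.114 and −0.225 against Acsl1. Among 10177 other genes the nearest to Acsl1 were Ehhadh (0.976, a peroxisomal beta-oxidation enzyme), Gk (0.974, glycerol kinase) and Lonp2 (0.964, a peroxisomal protease), and to Fabp1, beside Acsl1, Hibch (0.926) and Ehhadh (0.922). The nearest to Slc27a2 were Ehhadh (0.929), Cyp2j4 (0.923) and Decr1 (0.910). Pnpla2 was nearest to Acot7 (0.940), Slc22a5 (0.928) and Pdk4 (0.920), Angptl4 to Txnip (0.899), Pdk4 (0.870) and Crot (0.855), and Plin2 to Acot3 (0.879), Pdk4 (0.855) and Acot2 (0.845). Vldlr was nearest to Slc7a11 (0.909, a cystine transporter), Pdk1 (0.904) and Aldoc (0.894).

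Of 65 other genes of the same pathways 50 passed the filter: 14 of 19 for uptake, binding and activation, 9 of 14 for lipoprotein lipolysis and receptors, 10 of 12 for droplet coat and growth, 7 of 7 for triglyceride hydrolysis and 10 of 13 for triglyceride synthesis. After 72 h of Wy-14,643 8 of the 50 rose and 3 fell, against 7.31% of all probe sets called, and the median log2 difference was 0.06. Those of the droplet were Hilpda (2.90 ± 0.43, a small inhibitor of the lipase Pnpla2), Cidea (1.30 ± 0.42) and Fitm2 (1.12 ± 0.29, needed for droplet budding). Acsl3 (2.45 ± 0.44) and Acsl4 (0.87 ± 0.24) activate fatty acids, Dgat1 (0.93 ± 0.18) and Agpat3 (0.84 ± 0.19) make glycerolipids, and Lipa (0.64 ± 0.19) is the lysosomal lipase. The 3 that fell, Apoa5 (−2.87 ± 0.40), Apoc2 (−2.15 ± 0.41) and Apoc3 (−0.52 ± 0.16), code for apolipoproteins that set lipoprotein lipase activity. Without the D number 3 arrays (an alternative chosen for these lists after seeing the data) 9 of these 11 calls held, and Cidea (1.34, adjusted p = 0.0869) and Acsl4 (0.62, 0.0908) were lost. Another 2 were gained, giving 8 up and 3 down, against 9.15% of all probe sets called there. In the same comparison 5 of 11 hepatocyte markers fell, among them Ahsg (−1.70 ± 0.25) and Apoa1 (−0.98 ± 0.23), and 5 of 13 macrophage markers fell, with a median of −1.78 over the 13. Without the D number 3 arrays 7 of each list fell, the macrophage marker Ptprc (adjusted p = 0.136) no longer among them. The summed intensity of the hepatocyte markers was 28550 to 38650 against 45520 to 52220 in the controls and that of the macrophage markers 383 to 647 against 747 to 1099, and the part of either in these values was not tested.

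After 24 h of 2-nitrofluorene 4 of the 50 rose and none fell (against 1.13% of all probe sets): Hilpda (2.12 ± 0.43), Fitm2 (1.22 ± 0.29), Gpam (1.17 ± 0.31, the first enzyme of glycerolipid synthesis) and Dgat1 (0.77 ± 0.18). After 72 h Cidea (1.60 ± 0.42) and Agpat2 (0.77 ± 0.20) rose (against 0.809%). One of 11 hepatocyte markers, Ahsg, fell at 24 h (−0.97 ± 0.25), when 1 of the 11 had a mean above that of the controls. Their summed intensity at 24 h was 43210 to 51090 against 54710 to 71410, without overlap. Against the same controls 1 of the 11 was higher with piperonyl butoxide (sum 46440 to 53490) and 0 with nifedipine (48250 to 58960). At 72 h of 2-nitrofluorene 9 of the 11 were higher, and the sums overlapped (40310 to 48580 against 38960 to 48770). None of 13 macrophage markers was called with 2-nitrofluorene, and 1 of the 13 had a mean above that of the controls at each time, with medians of −0.58 and −1.02. The sum of 14 was 780 to 1194 against 1060 to 1643 at 24 h and 523 to 945 against 795 to 1528 at 72 h. The part of these markers in the values of the members was not tested. With aflatoxin B1 at 24 h Slc27a3 (an acyl-CoA synthetase of the transporter family) rose by 1.72 ± 0.48 and Fabp5 fell by 0.99 (against 3.33% of all). Without the D number 3 arrays neither was called (adjusted p 0.113 and 0.242), nor was any other of the 50 (against 4% of all). At 72 h Slc27a3 (2.27 ± 0.48), Fabp2 (1.32 ± 0.36) and Lpin3 (0.60 ± 0.18) rose, and Scarb1 (−0.88 ± 0.27), Lmf1 (−0.84 ± 0.24) and Plin3 (−0.49 ± 0.14) fell (against 4.91%), and all 6 calls held without the D number 3 arrays. Another 3 were gained without those arrays, giving 3 up and 6 down, against 12.8% of all probe sets called there. With nifedipine at 72 h Gpam (1.12 ± 0.31) and Plin3 (0.48 ± 0.14) rose, while Pnpla3 (−2.30 ± 0.39) and Apoa5 (−1.37 ± 0.40) fell (against 3.18%). With NNK at 72 h Slc27a3 (1.99 ± 0.48) and Lipe (1.06 ± 0.32) rose and Lipc (−0.89 ± 0.24) fell (against 3.32%). None of the 50 was called in the other 9 comparisons. Of the other marker lists, 1 of 3 adipocyte genes was called (Lipe with NNK at 72 h, also counted above), and none of 6 endothelial, 10 stellate and 3 bile duct genes was called in any of the 16 comparisons. Without the D number 3 arrays 1 of the 6 endothelial genes rose with aflatoxin B1 at 72 h (against 12.8% of all probe sets).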

How the data were processed

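RNA of cultured rat hepatocytes was measured on 72 Affymetrix arrays in 24 groups of 3. The authors deposited linear MAS5 signal intensities (MAS5 per the submitters' processing notes, with no version or settings recorded there). Of 31099 probe sets 57 control probe sets were left out. Of the remaining 31042, 20826 had 1 gene symbol in the platform annotation, 436 several and 9780 none. Groups, replicates and D numbers came from the labels, and no column was left unused (0). The labels call replicates separate experiments.

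Values below the 20th percentile (3.117) were raised to it and log2 values were taken from the deposited intensities. Probe sets whose mean reached the table's median (19.74) in at least 1 group were kept (18048, 58%). limma 3.58.1 in R 4.3.3 fitted the 24 group means (48 residual degrees of freedom) with eBayes and an intensity trend. The contrasts were 16 compound comparisons, 8 differences between times, 4 control comparisons, 2 differences between compounds and 4 direct comparisons. Adjusted p-values (Benjamini-Hochberg) cover all kept probe sets of a contrast. The fit was tested on simulated data. The number of arrays limits the precision.

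The members and lists were chosen with earlier results of these data known. Named genes are all members (the probe set of highest mean stands for a gene), up to 3 called genes per pathway list and comparison, and the 3 genes of highest correlation with each called member. Alternatives were a floor of 16, log2(value + 16), no filter, no trend, only the 6 arrays compared and quantile normalization. Others took the D number as a block, or left out each array, the D number 3 arrays or the 10 of high actin ratio. Arrays of equal number deviated together (correlation over 0.1 in every pair) in 14 of the 16 comparisons, not with aflatoxin B1.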

Additional observations from a re-analysis of the deposited data

Results flagged for a closer look

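In 4 cases all 3 pairs of equal replicate number moved one way at 24 h and the other way at 72 h. With nifedipine, Lpl was higher in all 3 pairs at 24 h (log2 differences of 1.76, 0.34 and 0.52) and lower in all 3 at 72 h (−1.45, −1.50 and −0.87). The difference between the times was −2.14 (95% interval −4.31 to 0.03, limma adjusted p = 0.685).

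With piperonyl butoxide, Angptl4 was higher in all 3 pairs at 24 h (1.89, 1.80 and 1.16) and lower in all 3 at 72 h (−0.16, −0.44 and −0.64), a difference of −2.03 (95% interval −3.91 to −0.15, limma adjusted p = 1). With NNK, Lpl went from 0.58, 0.10 and 0.27 to −0.44, −0.88 and −0.03, a difference of −0.77 (adjusted p = 0.999 in limma). With methapyrilene, Vldlr went from −0.66, −0.31 and −0.77 to 0.41, 0.27 and 0.36, a difference of 0.93 (adjusted p = 1 in limma). None of the 4 differences passed the adjusted test, and 8 compounds and 10 genes were looked through. Replicates of a group were too few for a search for single outlying arrays.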

How the results depend on the processing

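Of the 27 called changes of member probe sets, 405 values under alternatives kept their direction; 329 stayed past the threshold and 76 did not. Called under every alternative were 7: both probe sets of Acsl1, Angptl4 and Plin2 with 2-nitrofluorene at 24 h, and Fabp1 and both probe sets of Acsl1 with it at 72 h. Of 213 changes not called, 33 were called under at least 1 alternative. Where a count of called members of 15 moved, the cause was not tested. The counts below stand without the share of all probe sets called under the same alternative. They therefore do not show whether the members alone or all probe sets moved.

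For nifedipine at 72 h the count of 1 became 2 with a floor of 16 and 2 with log2(value + 16), and 3 with quantile normalization. For aflatoxin B1 at 24 h the count of 3 became 1 without the filter and 1 with quantile normalization. With only the 6 arrays compared the counts were 0 for Wy-14,643 at 72 h, 0 and 0 for aflatoxin B1 at 24 h and 72 h, 11 for 2-nitrofluorene at 72 h, 1 and 8 for nifedipine, and 2 for NNK at 72 h. With the D number as a block they were 2 for Wy-14,643 at 24 h, 1 and 4 for nifedipine at 24 h and 72 h, and, though its numbers do not pair the arrays, 4 and 5 for aflatoxin B1. Beyond the calls given with their results, the block gained the second Acsl1 probe set with Wy-14,643 at 24 h and Vldlr 1392924_at with aflatoxin B1 at 24 h (−1.28, adjusted p = 0.0284) and 72 h (−1.30, 0.0191), and changed no other call. Without the D number 3 arrays they were 4 for piperonyl butoxide at 24 h, 7 for nifedipine at 72 h and 2 for NNK at 72 h. Without the 10 arrays of high actin ratio they were 4 for piperonyl butoxide at 24 h, 11 for 2-nitrofluorene at 72 h, 1 and 7 for nifedipine and 3 for NNK at 72 h. No count is given there for aflatoxin B1, which was left with 1 array at each time. Differences for compounds outside the first set do not change in these last 2 settings, since those arrays enter only the shared spread.

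Leaving out 1 array at a time, counts ran from 0 to 3 for Wy-14,643 at 24 h and 4 to 7 at 72 h, 0 to 3 and 1 to 4 for aflatoxin B1, 0 to 2 for piperonyl butoxide at 24 h, 5 to 6 and 3 to 5 for 2-nitrofluorene, and 0 to 1 for nifedipine at 72 h. Dim members, such as Vldlr 1392924_at and Lpl, lie closest to the floor.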
